A study of Mus musculus with 8 samples.

Results

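The stretch of mouse chromosome 12 that flanks Vrk1 was examined gene by gene in testes at postnatal day 8. Array probes were taken as members when their position in the array annotation, on mouse build mm7, lay within 20 Mb of the midpoint of a Vrk1 probe and when at least 4 of 8 arrays had them well above background. Probes named Vrk1, Dlk1, Gtl2 or Meg3 were set aside. The window held 553 probes, of which 9 were set aside by name, 208 stayed under the filter on dim probes and 336 were members, out of 26948 probes tested over the whole array. The members carried 221 gene symbols, with 189 probes at lower and 147 at higher positions than Vrk1. The nearest member on the lower side lay 0.222 Mb from Vrk1 and the first on the higher side 1.88 Mb away. The last placed probe of the chromosome lay 13.7 Mb from Vrk1, so the window was cut short on that side. Of the members, 299 passed this background test on all 8 arrays and 4 on no array of VRK1-deficient testes, so that these 4 entered through the wild type arrays alone.

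RNA came from total testicular cells of 4 wild type and 4 VRK1-deficient mice, with 1 array per sample. VRK1-deficient mice carried a gene trap with a β-geo cassette in an intron of Vrk1, which leaves a reduced amount of transcript. The allele came from a single ES cell clone, RRR178, injected into C57BL/6 blastocysts. Carriers were backcrossed to C57BL/6 for several generations before the study, and wild type mice carried no trap. All animals were of the same age. The sources used here do not give the strain of the ES cells, and DNA variants of the animals were not analysed here. Because the RNA came from whole tissue, fewer cells of a type and less RNA per cell cannot be told apart.

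VRK1 is a nuclear serine/threonine kinase that phosphorylates chromatin-bound proteins and is needed in proliferating cells. When a mutant allele made in ES cells is bred onto another strain, the chromosome segment around it is inherited together with the allele, and its length shrinks only through recombination. A short oligonucleotide probe reads 1 stretch of a transcript, so a change of isoform, of transcript end or of sequence under the probe can move the signals of probes of 1 gene apart. Genes close to the trap were therefore described by distance, and the probes of each gene were set against each other.

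The sequences that carry the results are given as bases 16 to 45 of each 60-base probe, from 5′ to 3′ and in lower case. The first set holds the 4 probes of Zfp386, a zinc finger protein gene, because these probes moved in opposite directions. All 4 lie on the plus strand of chromosome 12 in mm7, within 8201 bases of each other, and no position relative to exons was assigned.
Zfp386 A_52_P282091, transcript AK043310, chr12:113792035-113792094: tcataagcagtacaaacgtgagctttaaag
Zfp386 A_51_P152211, transcript NM_019565, chr12:113796169-113796228: atgtctgatcacaagcaataccaaagacaa
Zfp386 A_51_P152203, transcript NM_019565, chr12:113796640-113796699: ggttatcttagagaaatctggtcagcgtga
Zfp386 A_52_P521937, transcript AK220544, chr12:113800176-113800235: ggtgtgaaaattgtgaagtctcgtttagct
The next set holds 4 probes of the Serpina3 family, because these paralogous genes lie side by side near Vrk1 and could share signal.
Serpina3c A_51_P157112, minus strand, chr12:101641464-101641523: cctatatgtggatctctgtttacatcctgg
Serpina3g A_51_P326191, plus strand, chr12:101736157-101736216: aactacgtaggactggtggacacctctgca
Serpina3m A_51_P358012, plus strand, chr12:101888454-101888512: tgaacctggagtctgtctttatttcctctt
Serpina3n A_51_P159453, plus strand, chr12:101908030-101908089: tagatagtgactaactgtgttataacctca
The last set holds both Vrk1 probes, as the reference point of all distances, on the plus strand.
Vrk1 A_51_P102339, chr12:103556489-103557469: acaacgtcgcagctttgatggagaaatgct
Vrk1 A_52_P555672, chr12:103560461-103560520: gaaaaacctctctatcaaaacctacgtgat
The longest run that any pair among the 4 full Zfp386 probes shared was 8 bases, and it was also 8 bases among the 6 tested Serpina3 probes. Probe A_52_P282091 shared a run of 18 bases with a probe of Chrna4, whereas no other probe of Zfp386 shared more than 14 bases with a probe of another gene. Transcripts were not searched, so hybridization of a Serpina3 probe to RNA of a paralogue was not tested.

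Both probes of the trapped gene were compared first. On the log2 scale, with the 75th percentile of each array set to 0, Vrk1 probe A_52_P555672 read -0.57, -0.50, 0.08 and -0.18 in wild type and -4.16, -4.18, -4.30 and -4.27 in VRK1-deficient testes. The genotypes were far apart on each array. Its log2 change, VRK1-deficient minus wild type, was -3.93 (standard error, SE, 0.15; adjusted p = 2.09e-05 in limma), and probe A_51_P102339 changed by -4.00 (SE 0.21, adjusted p = 0.000135). The arrays followed the genotype labels.

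1 wild type array stood apart. At the 982 probes called over the whole array (adjusted p under 0.05 in limma), the log2 signal of wild type replicate 1 lay at a median of 40% of the way from the other wild type arrays to the VRK1-deficient mean (quartiles 15.9% and 57.4%). Without it, 7641 of all tested probes (28.4%) and 96 of the 336 members (28.6%) were called. When 1 of the other 7 arrays was dropped instead, between 1 and 4 members were called. The 8 arrays lay on 2 slides with replicates 1 and 2 on one and replicates 3 and 4 on the other. Wild type samples took the first positions of each slide, so array position and genotype cannot be told apart.

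With all arrays, 24 of 336 members (7.14%) from 22 genes were called, against 3.64% of all probes tested. Of these, 17 members (5.06%) were lower in VRK1-deficient testes, against 1.97% of all probes, and 7 members (2.08%) were higher, against 1.68%. These shares were not tested against each other, since neighbouring probes and probes of 1 gene are not independent. The median log2 change was -0.04 over the members and 0.04 over all tested probes, and the median size of the change was 0.23 and 0.24, respectively. Without scaling between arrays, which moved the median log2 change of all probes by -0.18, 20 members were called lower and 3 higher, and with a normexp background correction 13 and 9. Values of the genotypes did not overlap at 56 members (16.7%), against 16.7% of all probes. Of the 24 called members, 20 kept an adjusted p under 0.05 in only 1 of the 8 fits that left out an array, the fit without wild type replicate 1. In the analysis with slide as a block, 16 members were called, 15 of them among the 24. Ttll5, Ttc8, Serpina3c and Serpina3m lost the call without scaling between arrays (adjusted p from 0.091 to 0.17), and Trip11 and Tmem63c with quantile normalization (adjusted p = 0.0503 and 0.0522). Slide 1 alone (2 against 2 arrays) gave 0 called members (34 at an unadjusted p under 0.05) and slide 2 alone gave 15. The 24 called members had the same direction on both slides. The shares of all probes called without scaling, with normexp, with slide as a block and on each slide alone are not given.

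**Figure D1:**
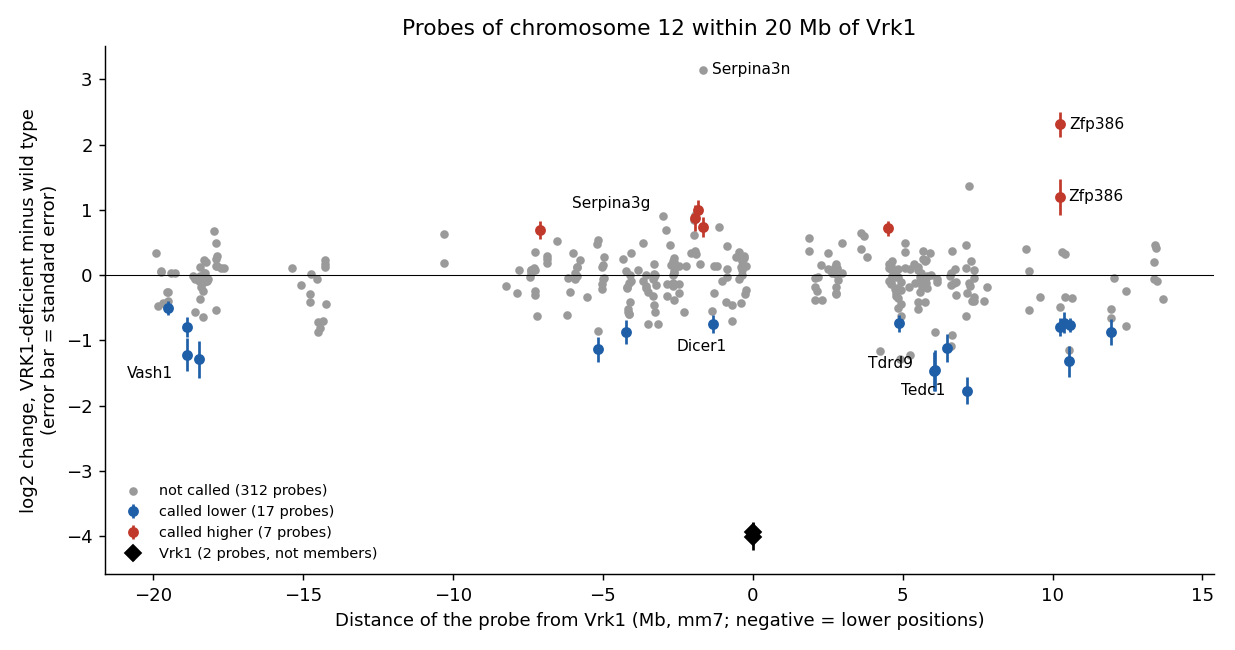
The log2 change (VRK1-deficient minus wild type) of each of the 336 members is plotted against its distance from Vrk1 in Mb; grey points were not called, blue and red points were called lower and higher with bars for the SE, and black diamonds are the 2 Vrk1 probes. No probe of the 5 nearest genes on each side was called, and called probes were most frequent beyond 10 Mb on the higher side.

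None of the 20 probes of the 5 nearest member genes on each side was called. Their adjusted p in limma lay between 0.133 and 0.985, and the largest change was 0.57 in size. At an unadjusted p under 0.05, 2 of the 20 passed, against 28.8% of all probes. On the lower side these were Papola, the nuclear poly(A) polymerase, Ak7, an adenylate kinase of cilia and flagella, Gskip, a regulator of GSK3, the transcript AK031876 and Atg2b, a lipid transfer protein of autophagy. On the higher side they were Bcl11b, a zinc finger transcription factor, Setd3, an actin histidine methyltransferase, Ccnk, a cyclin of transcription kinases, Hhipl1 and Cyp46a1, the cholesterol 24-hydroxylase. Called probes of Dicer1, Serpina3m and Serpina3g on the lower side lay closer to Vrk1 than these 5 genes of the higher side. For Papola, the brightest probe gave a mean of 3.04 (SD 0.27) on the 4 wild type and 2.74 (SD 0.09) on the 4 VRK1-deficient arrays, with an adjusted p of 0.217. Without wild type replicate 1 its change was -0.41 and its adjusted p 0.0308. Bcl11b probe A_51_P171772 changed by 0.37 (SE 0.15, adjusted p = 0.156).

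By distance, 5 of 93 probes were called within 5 Mb on the lower side of Vrk1 and 2 of 57 within 5 Mb on the higher side. From 5 to 10 Mb, 2 of 37 were called on the lower and 4 of 66 on the higher side. None of 14 probes was called between 10 and 15 Mb on the lower side and 4 of 45 between 15 and 20 Mb. The highest share, 7 of 24 probes (29.2%) from 5 of 14 genes, lay from 10 Mb to the end of the placed chromosome on the higher side. Of 396 stretches of 5 Mb on other chromosomes with 20 or more tested probes, 1 had a higher share, and their median was 3.33%. On the remainder of chromosome 12, 25 of 639 probes (3.91%) were called. This stretch was picked out after its values were seen, and 3 of its 7 called probes belong to Zfp386. In it, Zfp386 A_51_P152211, D430020J02Rik and Rapgef5 lost the call with normexp, and Zfp386 A_52_P282091 and Rapgef5 with quantile normalization. The comparison with other stretches is given only for the main fit.

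Zfp386, 10.2 Mb from Vrk1, held the member with the clearest genotype difference. Probe A_52_P521937 read -3.34, -3.56, -3.25 and -3.42 in wild type and -0.77, -0.97, -0.95 and -1.65 in VRK1-deficient testes. All VRK1-deficient arrays lay above all wild type arrays, and replicate 4 was the lowest of them. The log2 change was 2.31 (SE 0.19, 4.95-fold, adjusted p = 0.00486). It was 2.58 on slide 1 and 2.04 on slide 2. This was the only member called with all arrays and with each array left out in turn, where the adjusted p ranged from 0.000422 to 0.0417. Over the whole array 3 probes (0.0111%) met this criterion, and the other 2 were the Vrk1 probes. Wild type replicate 1, which lay between the genotypes at many called probes, lay 3.22% of the way toward the VRK1-deficient mean at this probe.

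The other probes of Zfp386 did not follow it. Probe A_51_P152203, the brightest of the gene and designed on NM_019565, read -1.70, -1.55, -1.66 and -1.30 in wild type and -2.01, -2.15, -2.01 and -2.01 in VRK1-deficient testes. The values did not overlap and were lower in VRK1-deficient testes, with a log2 change of -0.49 (SE 0.12) that missed the threshold (adjusted p = 0.0545). The second probe on NM_019565, A_51_P152211, read -3.76, -3.67, -3.36 and -3.29 against -4.37, -4.28, -4.42 and -4.17 and was called, with a log2 change of -0.79 (SE 0.14, adjusted p = 0.0409). With a normexp background correction this call was lost, and the change was -0.15 (adjusted p = 0.459) at A_51_P152211 and -0.32 (adjusted p = 0.0947) at A_51_P152203.

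The outermost probe at the lower position, A_52_P282091, moved upward like A_52_P521937. It was dim, read -5.81, -5.40, -5.55 and -4.74 in wild type, where 3 of 4 arrays were well above background, and -4.32, -3.92, -3.71 and -4.75 in VRK1-deficient testes. Its genotypes touched, because VRK1-deficient replicate 4 lay within the wild type range. It was the only called member with overlapping genotypes, with a log2 change of 1.20 (SE 0.28, adjusted p = 0.0499), or 0.54 with normexp (adjusted p = 0.0466), and it was not called with quantile normalization (adjusted p = 0.0563). Thus the 2 probes on NM_019565 read lower and the 2 probes designed on other transcripts, which lie outside them on either side, read higher. The array annotation does not list NM_019565 for these outer probes, and whether they read transcripts of Zfp386 was not tested.

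**Figure D2:**
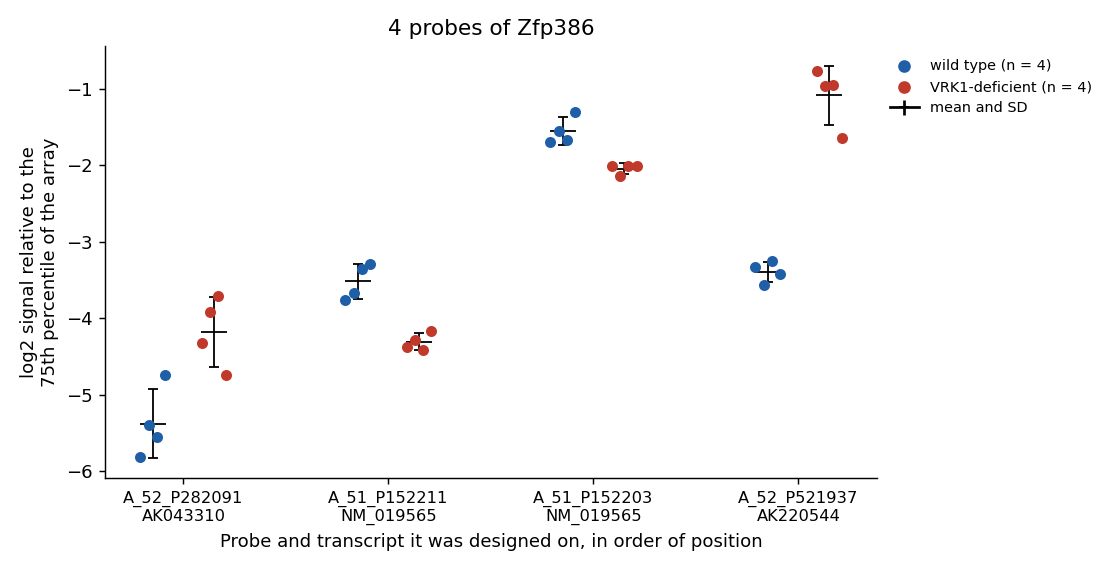
The log2 signal, after subtraction of the 75th percentile of each array, is shown for the 4 Zfp386 probes in order of position, with 1 point per array (blue wild type, red VRK1-deficient, n = 4 each) and bars for the mean and SD. The 2 inner probes, on NM_019565, lie lower in VRK1-deficient testes and the 2 outer probes lie higher, most of all A_52_P521937.

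To test such differences, the log2 difference between the brightest probe of a gene and each other probe of it was taken on each array and compared between genotypes. Of 9010 pairs on the array, 3 were called (0.0333%). Within 20 Mb of Vrk1 there were 115 pairs from 74 genes, and the 1 called was Zfp386 A_52_P521937 against A_51_P152203. Its log2 changes differed by 2.80 (SE 0.22, adjusted p = 0.00475), the largest difference of all 9010 pairs. With each array left out in turn the adjusted p lay between 0.00143 and 0.0462. The pair of A_52_P282091 and A_51_P152203 differed by 1.69 (SE 0.25, adjusted p = 0.0866), and the 2 probes on NM_019565 differed by -0.30 (adjusted p = 0.278), or by 0.17 with normexp (adjusted p = 0.543). With limma diffSplice, which sets each probe against the other probes of its gene, 62 of 15379 probes were called over the array, and the 3 among the members were the Zfp386 probes A_52_P521937, A_51_P152211 and A_51_P152203.

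Over all 115 pairs, Zfp386 included, most differences between probes of 1 gene were small and not called. The difference between log2 changes was under 0.5 in size for 96 of the 115 pairs, and its median size was 0.22 against 0.19 over all pairs of the array. The log2 changes had the same sign in 75 pairs and opposite signs in 40. At an unadjusted p under 0.05, 21.7% of the pairs of the window and 18.3% of all pairs passed. After Zfp386, the smallest adjusted p was shared by pairs of Wdr60, Slirp and Eif5. Wdr60 encodes an intermediate chain of the ciliary dynein-2 motor. Its brightest probe changed by -0.73 and a dimmer one by 0.33, a difference of 1.06 (SE 0.25, adjusted p = 0.144). Slirp, a mitochondrial RNA-binding protein gene, had a difference of -1.02 (SE 0.25) and Eif5, a translation initiation factor gene, one of 0.55 (SE 0.15), with the same adjusted p. Without wild type replicate 1, 9 pairs of the window were called. The count over all pairs of the array in this fit is not given, while called single probes rose from 982 to 7641.

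**Figure D3:**
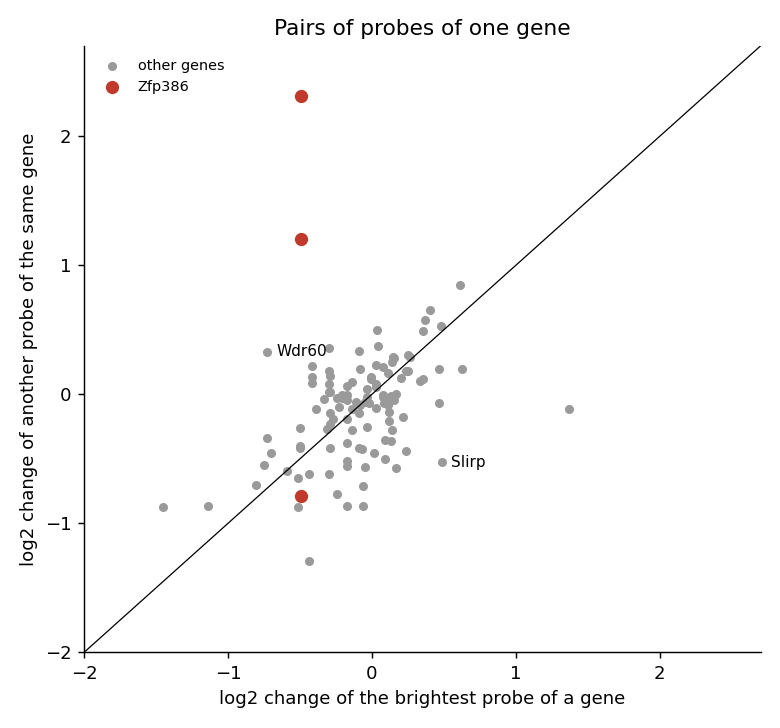
For each of the 115 pairs of probes of 1 gene within 20 Mb of Vrk1, the log2 change of the brightest probe is plotted against that of another probe of the gene, and the line marks equal changes. The 3 Zfp386 pairs are red; 2 of them lie far above the line, at 1.20 and 2.31 against -0.49.

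Among genes with several probes, the called fall of 1 probe was accompanied by lower values of others in some genes. Dicer1, the nuclease that makes microRNAs, was called with probe A_51_P483059, 1.34 Mb from Vrk1, which read 1.31, 1.50, 1.85 and 1.36 in wild type and 0.71, 0.75, 0.80 and 0.77 in VRK1-deficient testes. The groups did not overlap, and the log2 change was -0.75 (SE 0.13, adjusted p = 0.0414). Its second probe changed by -0.55 (adjusted p = 0.106). Ttll5, a tubulin polyglutamylase, had 4 probes with log2 changes between -0.26 and -0.50, of which 1 was called (adjusted p = 0.0474). Aspg, an asparaginase, had changes of -1.46 (adjusted p = 0.0475) and -0.88 (adjusted p = 0.053). The 3 Rapgef5 probes, for an exchange factor of Rap GTPases, changed by between -0.52 and -0.88, with 1 called (adjusted p = 0.0493). The called probe changed by -0.47 with normexp (adjusted p = 0.0887) and was not called with quantile normalization either (adjusted p = 0.0581). The 5 probes of Trip11, a golgin that tethers vesicles at the Golgi, ranged from -0.87 for the called A_52_P45175 (adjusted p = 0.0475) to 0.06.

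Next, the called members at higher positions were examined. Tedc1, which encodes a partner of the delta and epsilon tubulins of centrioles, lay 7.13 Mb from Vrk1. Its probe read -1.37, -0.77, -1.05 and -0.97 in wild type and -2.97, -3.12, -2.90 and -2.25 in VRK1-deficient testes. All VRK1-deficient arrays were lower, with replicate 4 closest to wild type. The log2 change was -1.77 (SE 0.21, 3.42-fold, adjusted p = 0.0258), the largest fall among called members, and it was called in 3 of the 8 fits that left out an array. When any 1 array except wild type replicate 1 was dropped, the adjusted p ranged from 0.0101 to 0.107.

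Tdrd9, a helicase of the piRNA pathway in germ cells, lay 6.04 Mb from Vrk1. Its probe read 0.53, 1.62, 1.74 and 1.64 in wild type and -0.54, 0.35, 0.18 and -0.34 in VRK1-deficient testes. The genotypes did not overlap, but wild type replicate 1 lay 64.8% of the way toward the VRK1-deficient mean. The log2 change was -1.47 (SE 0.30, adjusted p = 0.0473) with all arrays and -1.75 without that array. Tmem179, which encodes a membrane protein, changed by -1.11 (SE 0.21, adjusted p = 0.0444). AK012612 rose by 0.72 and AK035013 fell by 0.73 on the log2 scale (adjusted p = 0.0396 and 0.0413). With normexp the change of AK035013 was -0.31 and was not called (adjusted p = 0.114), and without scaling that of AK012612 was 0.54 and was not called (adjusted p = 0.144). These 2 transcripts kept the names given by the array.

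Beyond Zfp386 lay 3 called genes within 1 Mb. 2310058N22Rik, of unknown function, read -1.34, -1.65, -1.57 and -1.99 in wild type and -3.24, -3.26, -3.06 and -2.25 in VRK1-deficient testes. All VRK1-deficient arrays were lower and replicate 4 was again the highest of them, with a log2 change of -1.32 (SE 0.24, adjusted p = 0.0418). D430020J02Rik read -2.68, -2.54, -2.69 and -2.63 against -3.45, -3.35, -3.25 and -3.51, a gap much wider than the spread in either group, and changed by -0.76 (SE 0.11, adjusted p = 0.0316). With normexp, D430020J02Rik changed by -0.33 and lost its call (adjusted p = 0.0951), and 2310058N22Rik changed by -0.82 (adjusted p = 0.0294). The called Wdr60 probe read 1.70, 1.73, 2.04 and 1.62 against 0.97, 0.89, 0.86 and 1.46, where replicate 4 lay nearest to wild type (adjusted p = 0.0493).

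Because VRK1-deficient replicate 4 recurred, the place of each VRK1-deficient array between the mean of the other 3 and the wild type mean was computed on the linear scale for all called probes. This measure was chosen after the values were seen, and it was not tested. Replicate 4 lay 49.4% of the way to wild type at Zfp386 A_52_P521937, 68.7% at Zfp386 A_52_P282091, 56.7% at Wdr60 and 46.2% at 2310058N22Rik. It lay 23.3% of the way at Tedc1 and 17.2% at Zfp386 A_51_P152211, but -16.5% at D430020J02Rik and 4.20% at Rapgef5. The other VRK1-deficient arrays also stood off at some called members. Replicate 3 lay 46.8% of the way at Serpina3c and 43.4% at Serpina3m, and replicates 1 and 2 reached 40% at none. Over the whole array, 1.43%, 8.15% and 2.55% of called probes had replicates 1, 2 and 3 at 40% or more. Replicate 4 lay at -79.2% at Serpina3c, -51.3% at Serpina3g and -48.4% at Serpina3m, away from wild type. More than 7 Mb from Vrk1 on the higher side lay 8 called members, several of them probes of Zfp386. At 5 of these 8, replicate 4 lay at least 20% of the way to wild type, against 1 of the 16 other called members. Over all 982 called probes of the array, 157 (16%) had it there, and its median place was -5.56% (quartiles -18.8% and 10.9%). At 40% or more, replicate 4 was found at 3.87% of all called probes. Genotypes of the animals at these genes were not analysed here.

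**Figure D4:**
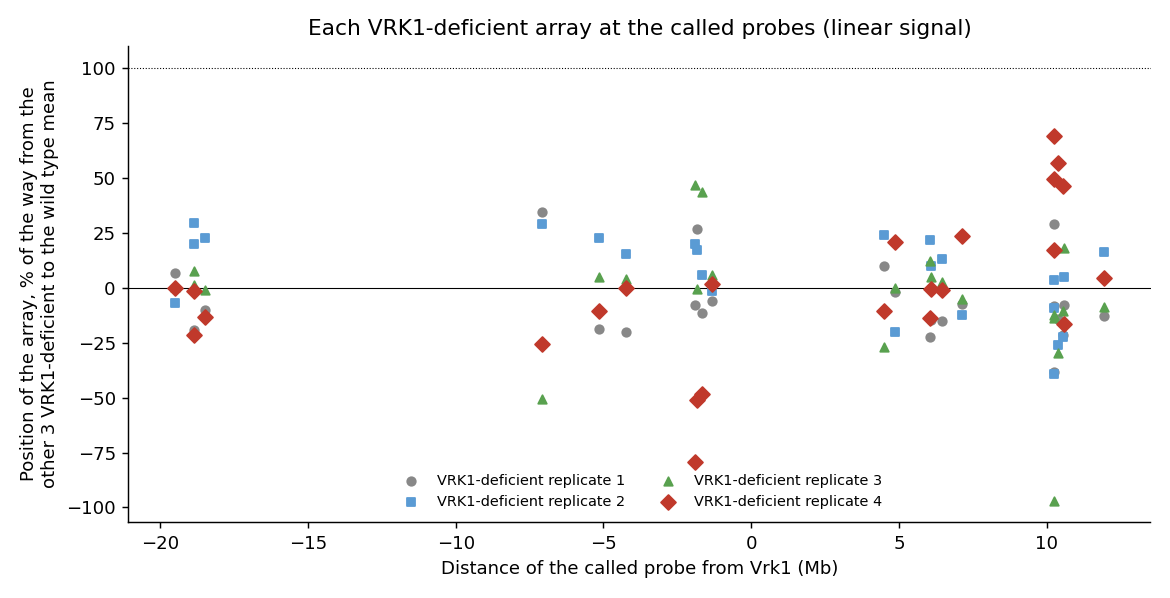
At each of the 24 called members, the place of each VRK1-deficient array is given in % of the way from the mean of the other 3 (0) to the wild type mean (100, dotted line), on linear signals, against distance from Vrk1 in Mb. Replicate 4 (red diamonds) lies at 46.2% to 68.7% for 4 probes between 10 and 11 Mb and near or below 0 for most probes elsewhere.

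Among the called members at lower positions, 4 lay between 18 and 20 Mb from Vrk1. Of these, Vash1, a tubulin tyrosine carboxypeptidase first known as an inhibitor of vessel growth, read -0.94, -0.26, 0.16 and -0.28 in wild type and -1.82, -1.12, -1.41 and -1.86 in VRK1-deficient testes. Wild type replicate 1 was the lowest wild type array and lay near the highest VRK1-deficient array. The log2 change was -1.22 (SE 0.25, adjusted p = 0.0474). The adjoining Angel1, a relative of the Ccr4 deadenylase, fell by 0.80 (adjusted p = 0.0444) and Tmem63c, a gene of the osmosensitive cation channel family, by 1.29 (adjusted p = 0.0493) on the log2 scale.

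Ttc8, a component of the BBSome that sorts proteins to cilia, lay 7.08 Mb from Vrk1. It read -2.15, -2.41, -2.39 and -2.06 in wild type and -1.72, -1.69, -1.39 and -1.46 in VRK1-deficient testes, without overlap, and rose by 0.69 on the log2 scale (SE 0.13, adjusted p = 0.0445). Ccdc88c, which encodes the Wnt regulator Daple, was the brightest called member. It read 3.08, 3.71, 3.81 and 3.59 in wild type and 2.16, 2.71, 2.49 and 2.28 in VRK1-deficient testes, with no overlap. Its log2 change was -1.14 (SE 0.19, adjusted p = 0.0409), and a second probe changed by -0.86 (adjusted p = 0.085).

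The Serpina cluster encodes secreted serine protease inhibitors and lies between 1.65 and 2.45 Mb from Vrk1. Of the 21 genes listed for it, 17 had a probe in the window and 10 were tested, with 11 probes. Of these probes 10 read higher and 1 lower in VRK1-deficient testes, with a median log2 change of 0.74, against 0.04 over all probes tested. Among the higher ones, Serpina3n passed the filter through the VRK1-deficient arrays, so the filter favoured its direction. Without scaling between arrays 9 probes read higher and 2 lower, with a median of 0.56 against -0.14 over all probes. The 3 called were all higher and belonged to Serpina3c, Serpina3g and Serpina3m, while 1.68% of all probes were called higher. Without wild type replicate 1, 8 of the 11 were called, against 28.4% of all probes. Serpina3g, an inhibitor of intracellular cysteine proteases, read 0.59, 0.43, 0.12 and 0.18 in wild type and 1.18, 1.25, 1.35 and 1.57 in VRK1-deficient testes. The genotypes were well apart, and the log2 change was 1.00 (SE 0.14, 2.01-fold, adjusted p = 0.033).

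Serpina3c read -1.93, -2.31, -2.79 and -2.46 in wild type and -1.44, -1.58, -1.76 and -1.19 in VRK1-deficient testes, with a log2 change of 0.88 (SE 0.20, adjusted p = 0.0493). Serpina3m read -0.91, -1.42, -1.52 and -1.35 against -0.50, -0.58, -0.78 and -0.38, with a log2 change of 0.74 (SE 0.16, adjusted p = 0.0474). In both, wild type replicate 1 was the highest wild type array and came close to the lowest VRK1-deficient array, at 57.6% and 59.9% of the way to the VRK1-deficient mean.

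Serpina3n, an inhibitor of granzyme B and other serine proteases, was not called. Only 1 of 4 wild type arrays, but all 4 VRK1-deficient arrays, had it well above background. It read -6.57, -7.24, -3.96 and -8.29 in wild type and -3.05, -3.29, -3.74 and -3.41 in VRK1-deficient testes. The genotypes did not overlap, although wild type replicate 3 lay just under the lowest VRK1-deficient array. Since it passed the filter through the VRK1-deficient arrays and its wild type signal was mostly at background, the size of the change is not defined. It was 3.14 on the log2 scale (SE 0.76, adjusted p = 0.0543), and 1.01 with a normexp background correction (adjusted p = 0.0242). Serpina5, the protein C inhibitor that is known from the male reproductive tract, was the brightest gene of the cluster and its probes changed by 0.85 (adjusted p = 0.0778) and 0.61 (adjusted p = 0.0872). Serpina3a changed by 0.92 (adjusted p = 0.11), and Serpina1d, an α1-antitrypsin gene, by -0.56 (adjusted p = 0.0889).

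**Figure D5:**
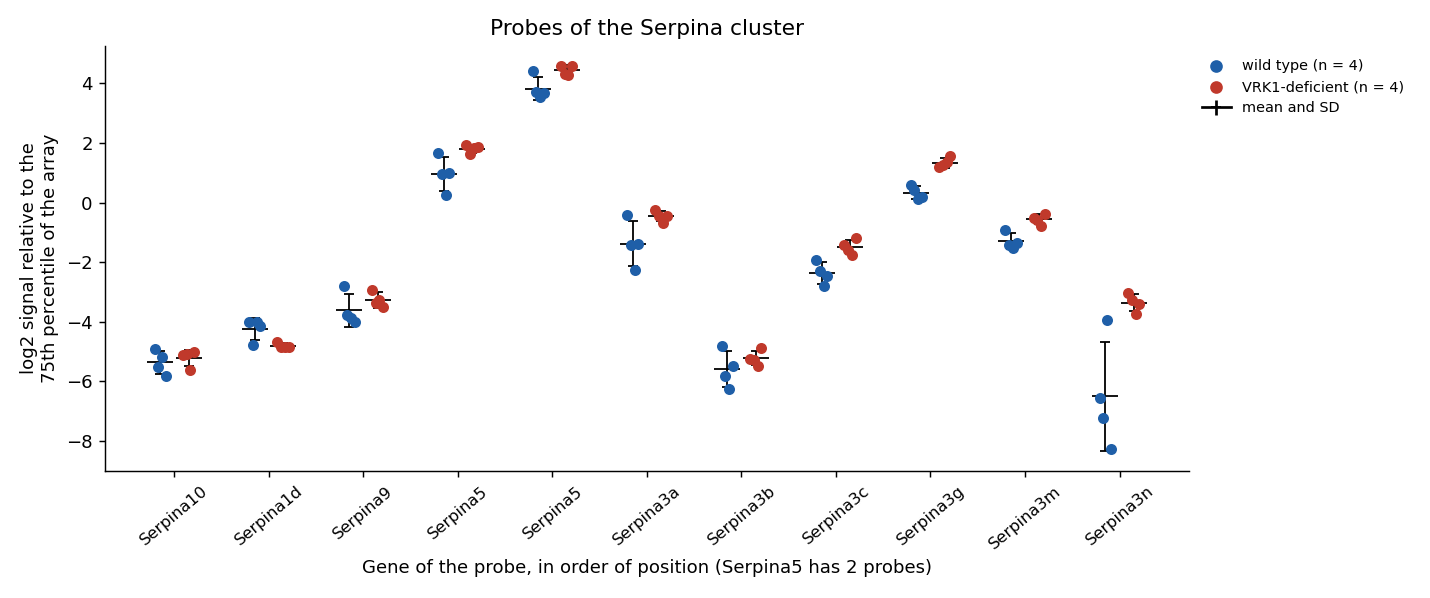
The log2 signal, after subtraction of the 75th percentile of each array, is shown for the 11 tested probes of the Serpina cluster in order of position, with 1 point per array (n = 4 per genotype) and bars for the mean and SD. Of the 11 probes 10 have a higher mean in VRK1-deficient testes, with separate groups at Serpina3c, Serpina3g, Serpina3m and Serpina3n. Serpina3n passed the background filter through the VRK1-deficient arrays, and its wild type signal is mostly at background.

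In the imprinted cluster about 4 Mb from Vrk1, 4 genes beside Dlk1 and Meg3 had 6 tested probes, of which none was called and 5 read higher (4 without scaling between arrays). The maternally expressed long RNAs Rian and Mirg changed by between 0.41 and 0.65 (adjusted p from 0.0859 to 0.189). Dio3, the paternally expressed thyroid hormone inactivating deiodinase, changed by -1.16 (SE 0.30, adjusted p = 0.0603). An unadjusted p under 0.05 was found for 3 of the 6 probes, against 28.8% of all probes, and 2 were called without wild type replicate 1, against 28.4%.

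The other lists of the window were read against the 3.64% of all probes called. For RNA processing and silencing, 1 of 22 probes was called (Dicer1, lower), with a median log2 change of 0.08. For Golgi, vesicle and microtubule transport, 1 of 24 was called (Trip11, lower), with a median of -0.11. None was called among 7 probes for DNA repair and meiosis (median -0.03), 10 for ubiquitin, proteasome and chaperones (median 0.00) and 12 for receptors, channels and secreted factors (median 0.10). Likewise, none was called among 19 probes for kinases, phosphatases and inositol phosphate enzymes (median -0.05) or 13 for transcription factors and chromatin (median 0.18). Of the 61 probes of these uncalled lists, 12 had an unadjusted p under 0.05, against 28.8% of all probes, and 14 were called without wild type replicate 1, against 28.4%.

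Markers of the cell types of the testis were set beside these values. All 8 germ cell markers read lower in VRK1-deficient testes, with a median log2 change of -1.07. None was called with all arrays. However, all 8 had an unadjusted p under 0.05, against 28.8% of all probes. All 8 were called without wild type replicate 1, against 28.4%. Their summed linear signal ranged from 40.9 to 127 in wild type, where replicate 1 gave the lowest value, and from 25.8 to 51.0 in VRK1-deficient testes. All 8 Sertoli cell markers read higher (median 0.49), with none called. Against the same shares of all probes, 5 had an unadjusted p under 0.05 and 7 were called without that array. Their sum ranged from 189 to 292 in wild type, with the highest value again in replicate 1, and from 264 to 311 in VRK1-deficient testes. The sums ranged from 33.6 to 51.1 in wild type and from 44.1 to 57.2 in VRK1-deficient testes for 6 Leydig cell markers, and from 138 to 152 and from 120 to 154 for 4 peritubular myoid cell markers. All 4 of the latter read lower, with a median log2 change of -0.07, and Cnn1, a calponin of smooth muscle, was the only marker of any list called (log2 change -0.99, adjusted p = 0.0444). They ranged from 2.60 to 3.55 and from 3.11 to 3.57 for 4 macrophage markers, and from 2.35 to 2.93 and from 3.03 to 3.52 for 4 endothelial markers. All markers listed passed the background filter, and their part in the changes of the members was not tested.

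Of the 4 members with no VRK1-deficient array well above background, 3 gave a bound. Tecpr2 probe A_51_P130282, for a protein of autophagy, was at least 1.84-fold lower (adjusted p = 0.0742) and LOC382639 at least 1.86-fold lower (adjusted p = 0.0601). The bound on each array was the lowest signal well above background, or the probe's own signal where that was higher. A probe of Trip11 was at least 1.14-fold lower (adjusted p = 0.142). A probe of Sel1l was too dim in wild type for a bound. All 4 entered through the wild type arrays alone, so the filter favoured this direction. Neither of the remaining Tecpr2 probes was called, with log2 changes of -0.62 and -0.44. Among the 208 probes under the filter, 9 were well above background on 3 wild type arrays and no VRK1-deficient array. They included 2 probes of Tc2n and single probes of Esrrb, an orphan nuclear receptor, and Gsc, a homeobox factor. The genotypes overlapped at each of these 4 named probes, for Tc2n and Esrrb only through wild type replicate 1. At a probe of Tmed8, also among the 9, they did not overlap. Its lowest wild type value was -6.05 and its highest VRK1-deficient value -6.86. Gsc read -5.80, -4.92, -5.40 and -5.66 in wild type and -5.49, -5.88, -5.94 and -5.24 in VRK1-deficient testes. In the opposite direction, 1 probe was well above background on 3 VRK1-deficient arrays and no wild type array. Neither count was compared with the whole array.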

How the data were processed

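RNA of 8 samples was hybridized to 1-color Agilent mouse arrays. Per the labels, signals were extracted with Agilent Feature Extraction 9.5.3.1, and the authors deposited processed signals, which are linear intensity values with the background subtracted and without scaling between arrays. The series value table, also deposited, repeats these signals. Log2 intensities minus the log2 of the 75th percentile of each array were computed from the deposited values after removal of outlier spots (58 to 134 per array), and spots of a probe were averaged. No spot was saturated, and 63.6% to 69.5% of spots per array were well above background. A probe was tested when 4 or more arrays had it well above background, with limma 3.58.1 in R 4.3.3 (lmFit and eBayes, Benjamini-Hochberg over 26948 probes, called at an adjusted p under 0.05).

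Pairs of probes were fitted in the same way over 9010 pairs. The labels number the samples within a genotype, and nothing says that equal numbers mark a shared litter. P-values set the difference between genotypes against the spread between these samples. The number of arrays limits precision. Data were simulated with independent normal noise and changes of at least 2-fold, a size that 11 of the 24 called members reached. There, 81.5% of 200 changed probes among 26948 and 76.5% of 200 changed pairs among 9010 were recovered. Smaller changes were not simulated, so their recovery is not known. Positions are those of build mm7 in the array files. Symbols came from a RefSeq table (assembly GRCm38) through the accession (182 members), the symbol (66) or a synonym (36), and 52 members kept the array name.

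Members, lists and markers were chosen with earlier results of these data known. Genes named are Vrk1, the 12 called members with the largest changes in each direction, members called with each array left out, the 5 nearest genes on each side and genes with a called pair. The 5 other called members (Dicer1, Ttll5, Wdr60, AK035013 and D430020J02Rik), uncalled members of the lists and probes under the filter were named after their values were seen. A fold against a genotype without signal is a bound. It was set on each array at the lowest signal well above background, or at the probe's own signal where that was higher. Alternatives were quantile normalization, normexp with an offset of 50, no scaling, other filters, slide and replicate blocks, each slide alone, each array left out, the methods' t-test (also with a p of at most 0.05 and 2-fold change), an intensity trend with robust variances, gene means, windows of 5 and 10 Mb and diffSplice. Tables and figures used Python 3.11.15, numpy 2.4.6, pandas 2.3.3, scipy 1.17.1, data.table (1.17.8) and matplotlib 3.10.9.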

Additional observations from a re-analysis of the deposited data

Results flagged for a closer look

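Among 76 groups of 4 arrays looked at, at the called members, the brightest probes of the nearest genes, Vrk1, Serpina3n and Zfp386 A_51_P152203, 2 held an array far from the other 3 by Dixon's criterion, which chance meets in about 1 in 20 groups. At Tdrd9, wild type replicate 1 read 0.53 while the remaining wild type arrays read 1.62 to 1.74, a gap of 0.903 of the range. At Zfp386 A_51_P152203, VRK1-deficient replicate 2 read -2.15 against -2.01 on the other 3 arrays, a gap of 0.964 of a narrow range. Degs2, which encodes a sphingolipid desaturase and hydroxylase, stayed under the filter on dim probes, and its probe was well above background on 3 VRK1-deficient arrays and 0 wild type arrays.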

How the results depend on the processing

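The number of called members depended on the arrays used and on the filter. Of 17 members called lower and 7 called higher, the counts were 1 and 1 without a filter on dim probes, 3 and 3 with the methods' t-test after Benjamini-Hochberg adjustment, and 0 and 0 on slide 1 alone. The same t-test called 0 probes of the nearest genes, of the imprinted cluster and of the germ and Sertoli cell markers. Slide as a block gave 11 called lower, and no scaling between arrays and slide 2 alone each gave 3 called higher. The methods' threshold gave 4 called higher, and an intensity trend with robust variances 11. With 1 array left out, the counts lay between 0 and 60 for lower and between 1 and 36 for higher, with the highest values without wild type replicate 1. Fewer arrays or more probes were tested in several of these settings, and otherwise the cause was not tested. Quantile normalization, normexp and a filter on all 8 arrays kept both counts within 1.5 times. The fit with the replicate number as a replicate block gave 29 called lower and 8 higher. Deviations of equally numbered arrays of the genotypes correlated at 0.468, 0.0735, 0.188 and -0.139. Arrays of unequal number were not compared, so a pairing by number was not tested. The share of called probes was 4.67% within 5 Mb and 5.14% within 10 Mb. For pairs of probes, 2 were called with normexp and between 1 and 9 with 1 array left out. Each called member kept its direction in each setting that tested it. For single probes and Zfp386 pairs, 445 values from the alternatives stayed on their side of the threshold, 261 lost the call and 11 gained it. Zfp386 A_52_P521937 against A_51_P152203 was called in all 12 fits of pairs other than the main one. At 4 arrays per genotype, changes of dim probes were limited by background.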
